A study of Solanum pimpinellifolium with 6 samples.

Results

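The genes described here are the 165 genes, of 34723 with values, whose deposited description names a 40S or a 60S ribosomal protein, 66 of them for the small subunit and 99 for the large one. The rule reads these words and no measured value, while the choice of this gene family was made with earlier results of these data known. RNA had been sequenced from young fruits of Solanum pimpinellifolium LA1589, a wild currant tomato, collected 2 days after the flower opened (2 dpa) following pollination by hand, on plants grown in a phytotron and labelled as 2 months old. There were 3 libraries labelled as the transgenic RNA interference (RNAi) line 207, directed against the zinc finger transcription factor SlZFP2, and 3 labelled as its nontransgenic sibling, with the genotype given as wild type. The series design describes line 207 as impaired in setting fruit and in making the hormone abscisic acid. All transgenic libraries came from 1 line. The labels name neither the promoter of the RNAi construct nor how many fruits or plants made a library, and 1 protocol label names shoot tips where the sample labels name fruits.

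Ribosomes translate messenger RNA into protein. The cytosolic ribosome of plants has a small 40S subunit, which holds the messenger RNA and decodes it, and a large 60S subunit, which joins the amino acids and releases the chain through an exit tunnel. Each subunit is a core of ribosomal RNA covered by ribosomal proteins, most of them present once per ribosome, and plants usually carry several gene copies for each protein. Transcripts of these genes are abundant in growing tissue, and a tomato fruit a few days after pollination is known as a tissue of active cell division.

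The gene matched from memory to the RNAi target ran opposite to the labels without passing the test, and the reason was not tested. SlZFP2 (Solyc07g053570) had 10.3, 9.03 and 7.45 FPKM in the libraries labelled line 207, against 2.89, 3.05 and 0.00147 FPKM in those labelled sibling, where FPKM is a value scaled by gene length and by library depth. It was thus listed higher, not lower, in every library labelled as silenced, without passing the test (limma, adjusted p = 0.112), and directions given below hold between the groups as labelled. Read totals were not used, and depth is given relative to 1 library, from how finely its low values are spaced. With labelled sibling replicate 1 set to 1, it was 0.388, 0.505 and 0.786 in labelled line 207 replicates 1 to 3, against 0.803 and 0.862 in labelled sibling replicates 2 and 3, so labelled line 207 was sequenced less deeply. Of the tissue markers, the carpel and fruit gene TAG1 showed 60.6, 64.5 and 90.6 FPKM in labelled line 207 and 16.7, 21.9 and 24.4 FPKM in labelled sibling. TAG1 was called higher, 3.42-fold by the group means (limma, adjusted p = 0.00877), and kept the call with any 1 of the 6 libraries left out. Another carpel gene, TAGL1, was uneven, with 72.0, 70.9 and 0.0124 FPKM in labelled line 207 and 28.2, 0.000922 and 30.9 FPKM in labelled sibling. The flower organ gene TM5 was present in all 6 libraries, between 156 and 230 FPKM. Neither TAGL1 nor TM5 passed the test (limma, adjusted p = 0.833 and 0.345). The shoot meristem gene TKN2 reached at most 5.84 FPKM, the gene listed for WUS at most 2.02 FPKM and the identifier used for CLV3 was at 0 throughout.

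The description of the genes was mostly borne out by their protein domains. A ribosomal protein domain was listed for 157 of the 165 genes. The 8 without one were 4 genes named L18A with a capital letter, 1 gene named L5 of the mitochondrion, 1 named L7A-like, the nucleolar gene NOP16 (Solyc09g075030), which takes part in building the 60S subunit and is no part of the ribosome, and Solyc12g096220, which is named L7 but lists the PRONE domain of Rop nucleotide exchangers. The acidic proteins of the ribosomal stalk carry a differently worded name and are given as a list of their own further on. The genes carried 58 protein names, 23 of the small and 35 of the large subunit. Names were read as written, so L18A and L18a, L23A and L23a, and L33-B and L35a count apart. A name counted here need not be a separate protein. A value of at least 1 FPKM in 3 or more libraries, the condition for testing, was reached by 131 genes, 57 of the 40S and 74 of the 60S subunit. A further 27 genes were at 0 in all 6 libraries, among them 8 genes for L12, and the remaining 7 had some value, the highest being 56.2 FPKM. In this way 51 of the 58 protein names had at least 1 tested gene, and no name had more than 6.

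The tested ribosomal protein genes were among the most abundant transcripts of these fruits. The median of their mean level was 211 FPKM, against 12 FPKM over all 15766 genes tested, and 96 of the 131 ranked within the top 1000 genes by mean. The highest was S28 (Solyc10g078630), a small protein of the 40S head, at 2080, 3365 and 3759 FPKM in labelled line 207 and 5032, 5734 and 7931 FPKM in labelled sibling. The groups for S28 did not overlap, but the difference of -1.04 ± 0.39 (SE) on the log2(FPKM + 1) scale did not pass the test (limma, adjusted p = 0.141). S21 (Solyc01g066840), also of the small subunit, followed with 799, 1187 and 908 FPKM in labelled line 207, against 1329, 1713 and 1943 FPKM in labelled sibling. The next were 2 genes for L27 of the large subunit. The L27 gene Solyc07g043360 gave 773, 1105 and 1054 FPKM in labelled line 207 and 1159, 1606 and 1693 FPKM in labelled sibling. The L27 gene Solyc06g073300 had 931, 1167 and 965 FPKM in labelled line 207 and 949, 1616 and 1589 FPKM in labelled sibling. The first of these L27 genes was lower in every library labelled line 207, and the second overlapped between the groups. L23a (Solyc09g005720), at which the signal recognition particle docks on the yeast ribosome, showed 621, 824 and 629 FPKM in labelled line 207, against 1023, 1308 and 1211 FPKM in labelled sibling. L44 (Solyc03g112850) gave 664, 810 and 620 FPKM in labelled line 207, against 928, 1178 and 1332 FPKM in labelled sibling. Neither L23a nor L44 overlapped between groups, and neither passed the test (limma, adjusted p = 0.0619 and 0.0898).

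Across the tested ribosomal protein genes most levels were lower in the libraries labelled line 207. The log2 difference, labelled line 207 minus labelled sibling, was negative for 112 genes and positive for 19, with a median of -0.57, against -0.09 over all tested genes. That is 85.5% negative, against 54% of all tested genes. The median was -0.54 for the 40S genes and -0.63 for the 60S genes. The test across all genes (limma on log2(FPKM + 1), Benjamini-Hochberg adjusted p at most 0.05) called 15 of the 131 lower and 0 higher. In shares this is 11.5% lower and 0% higher, where the same test called 5.04% of all tested genes lower and 5.01% higher. At an unadjusted p under 0.05, 74 of the 131 were lower and 3 higher, or 56.5% and 2.29%, against 14.1% lower and 12.1% higher over all tested genes. With 3 samples a group, most single differences of this size did not pass.

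The groups did not overlap, with labelled line 207 lower, for 75 of the 131 genes or 57.3%, against a background of 17.6% of all tested genes. The opposite pattern held for 4 of the ribosomal protein genes or 3.05%, against a background of 15.6%. These genes share their libraries and the scaling of those libraries, so they do not count as separate tests of the condition. Among the 103 genes with a mean of at least 100 FPKM, 96 had a negative difference. The share of negative differences among all genes at that level is not given, so this count is not set against genes of like abundance. All tissue in a library was sequenced together, so fewer cells of a type and less RNA per cell cannot be told apart.

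**Figure D1:**
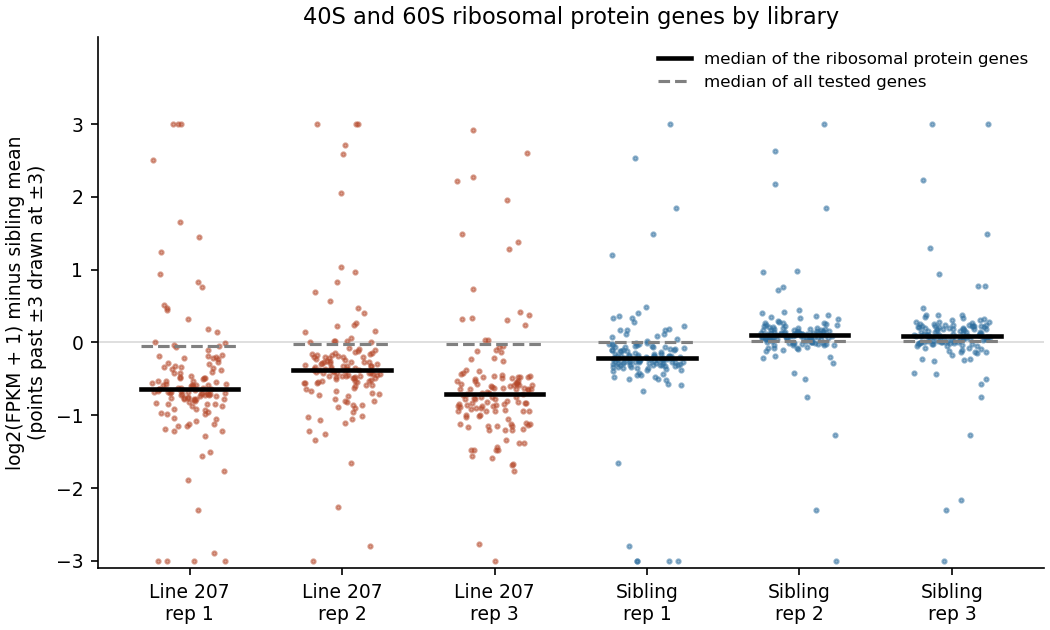
Level of each of the 131 tested ribosomal protein genes in each library, as log2(FPKM + 1) minus the mean of the 3 labelled sibling libraries, with labelled line 207 in red on the left and labelled sibling in blue on the right, black bars for the median of these genes and dashed grey bars for the median of all tested genes. The black bars lie at -0.64, -0.37 and -0.70 in labelled line 207 and -0.22, 0.10 and 0.09 in labelled sibling, while the grey bars stay within 0.06 of 0.

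By library, the median difference of these genes from the labelled sibling mean was -0.64, -0.37 and -0.70 in labelled line 207 replicates 1 to 3. It was -0.22, 0.10 and 0.09 in labelled sibling replicates 1 to 3. All 3 libraries labelled line 207 therefore lay below all 3 labelled sibling, with replicate 2 of labelled line 207 and replicate 1 of labelled sibling nearest to each other. Below every labelled sibling library lay 102, 81 and 104 of the 131 genes in labelled line 207 replicates 1, 2 and 3, or 77.9, 61.8 and 79.4%, against 35.8, 34.7 and 33% of all tested genes. The same 6 medians over all tested genes stayed between -0.0521 and 0.0258.

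**Figure D2:**
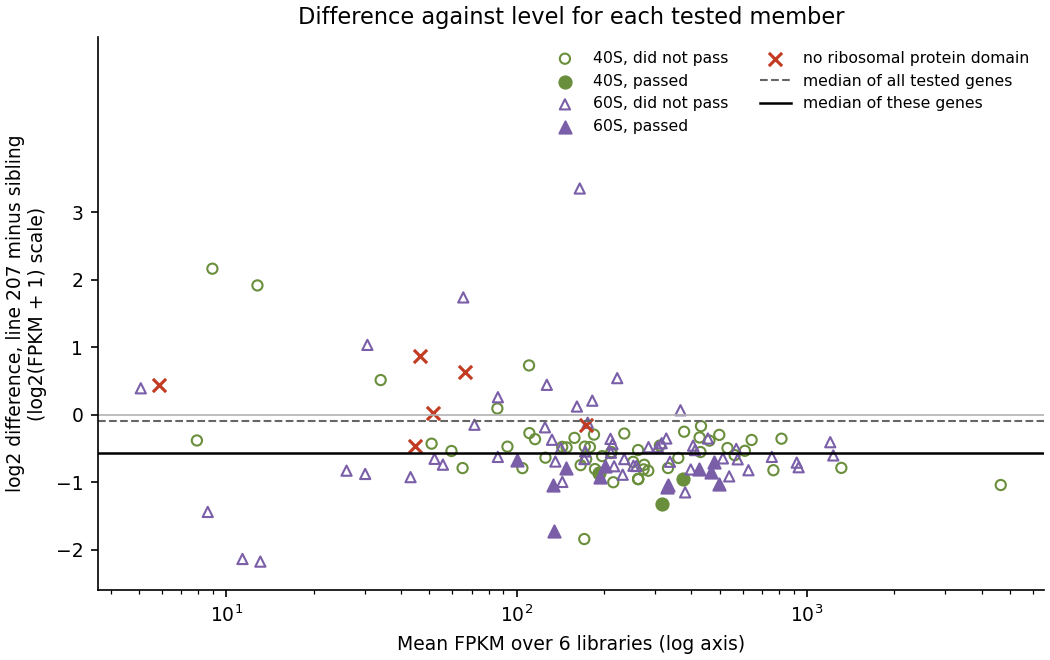
Log2 difference, labelled line 207 minus labelled sibling, against the mean FPKM over 6 libraries (log axis) for each tested gene, circles for 40S, triangles for 60S, filled where the test was passed, and crosses for the 6 tested genes without a ribosomal protein domain. Most points lie between the dashed line at -0.09 for all genes and -1, around the solid line at -0.57, and the positive points are mostly genes under 100 FPKM or crosses.

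Of the small subunit, 3 of 57 tested genes passed the test as lower in the libraries labelled line 207, or 5.26%, a share close to the 5.04% of all tested genes. The difference was negative for 52 of the 57, or 91.2%, against 54% of all tested genes. With 1 library left out, between 0 and 5 of the 40S genes passed. S26 (Solyc04g008810), which lies by the messenger RNA exit channel in yeast, had 183, 219 and 140 FPKM in labelled line 207, against 362, 463 and 529 FPKM in labelled sibling. That is 2.50-fold lower by the group means, and the log2 difference was -1.32 ± 0.23 (SE; limma, adjusted p = 0.0162). S10 (Solyc01g099670), found near the messenger RNA entry in yeast and mammalian ribosomes, showed 233, 267 and 269 FPKM in labelled line 207 and 471, 491 and 520 FPKM in labelled sibling. The 2 groups of S10 were tight and far apart, and S10 was 1.93-fold lower (limma, adjusted p = 0.0118). S25 (Solyc02g069850), which mammalian cells and yeast need for initiation at some viral messages, gave 151, 114 and 144 FPKM in labelled line 207, against 279, 243 and 223 FPKM in labelled sibling. S25 was 1.82-fold lower (limma, adjusted p = 0.0268), and it missed the threshold whichever library was left out, with adjusted p between 0.0506 and 0.0857. S10 kept its call except without labelled line 207 replicate 1 (adjusted p = 0.0503). S26 kept it in 3 of the 6 and lost it without labelled line 207 replicate 1 or 3 and without labelled sibling replicate 2 (adjusted p = 0.0537, 0.0504 and 0.0592).

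Of the large subunit, 12 of 74 tested genes passed the test as lower, or 16.2%, against 5.04% of all tested genes. The difference was negative for 60 of the 74, or 81.1%, against 54% of all tested genes. Between 3 and 15 passed with 1 library left out. Whether the share differs from that of the small subunit was not tested. The lowest p-values belonged to L13a, L18a and L6, which were also the 3 genes called lower with any 1 of the 6 libraries left out. L13a (Solyc05g053670), which in human cells also acts off the ribosome in translational silencing, had 195, 240 and 216 FPKM in labelled line 207, against 434, 451 and 457 FPKM in labelled sibling. It was 2.06-fold lower, with a log2 difference of -1.04 ± 0.15 (SE; limma, adjusted p = 0.0093). L18a (Solyc08g016180) showed 142, 130 and 127 FPKM in labelled line 207 and 250, 262 and 248 FPKM in labelled sibling, or 1.91-fold lower (limma, adjusted p = 0.00963). The spread within each group of L18a was small beside the gap between them, with means of 133 ± 7.99 FPKM in labelled line 207 and 253 ± 7.71 FPKM in labelled sibling (SD, n = 3 each). L6 (Solyc05g054070) gave 82.1, 103 and 78.2 FPKM in labelled line 207, against 179, 182 and 177 FPKM in labelled sibling, or 2.05-fold lower (limma, adjusted p = 0.011).

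L39, L4, L17 and L35 are proteins that lie in or around the exit tunnel in yeast, and they are placed side by side here after their values were seen, with no test of them as a group. L39 (Solyc12g010350), a very small protein inside the tunnel, had 53.3, 41.3 and 99.3 FPKM in labelled line 207, against 244, 221 and 150 FPKM in labelled sibling. This was the largest fold among the called genes, 3.17-fold lower, with a log2 difference of -1.72 ± 0.35 (SE; limma, adjusted p = 0.0269). L4 (Solyc09g007250), which reaches into the tunnel wall, showed 162, 140 and 147 FPKM in labelled line 207 and 216, 277 and 271 FPKM in labelled sibling, or 1.71-fold lower (limma, adjusted p = 0.0312). L17 (Solyc06g071880), at the tunnel mouth, gave 90.1, 135 and 104 FPKM in labelled line 207 and 196, 178 and 188 FPKM in labelled sibling (1.71-fold lower; limma, adjusted p = 0.0423). For L39, L4 and L17 no library labelled line 207 reached the level of any labelled sibling. L35, another protein of the tunnel mouth, had 2 called genes. The L35 gene Solyc04g010240 had 371, 368 and 268 FPKM in labelled line 207, against 526, 594 and 682 FPKM in labelled sibling (1.79-fold lower; limma, adjusted p = 0.0429). The L35 gene Solyc05g054810 showed 296, 211 and 147 FPKM in labelled line 207, against 480, 445 and 404 FPKM in labelled sibling (2.03-fold lower; limma, adjusted p = 0.0475). Both L35 genes were lower in every library labelled line 207, and the third tested L35 gene, Solyc06g075620, overlapped between the groups with 34.3, 84.3 and 91.3 FPKM in labelled line 207 and 75.7, 133 and 98.1 FPKM in labelled sibling. Not every gene for a protein of this region passed, and those given here are not all of them. The L4 genes Solyc10g084350 and Solyc10g086010 did not pass (limma, adjusted p = 0.0605 and 0.25). Neither did the L17 genes Solyc03g111230 and Solyc06g071870 (limma, adjusted p = 0.147 and 0.126). The L39 gene Solyc07g005050 had 312, 505 and 319 FPKM in labelled line 207, against 592, 769 and 739 FPKM in labelled sibling, apart but not past the test (limma, adjusted p = 0.0587). The L31 gene Solyc05g008010 showed 258, 343 and 264 FPKM in labelled line 207 and 313, 394 and 394 FPKM in labelled sibling, and the L31 gene Solyc12g008720 gave 574, 374 and 208 FPKM in labelled line 207 and 449, 253 and 341 FPKM in labelled sibling. Both L31 genes overlapped between the groups.

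**Figure D3:**
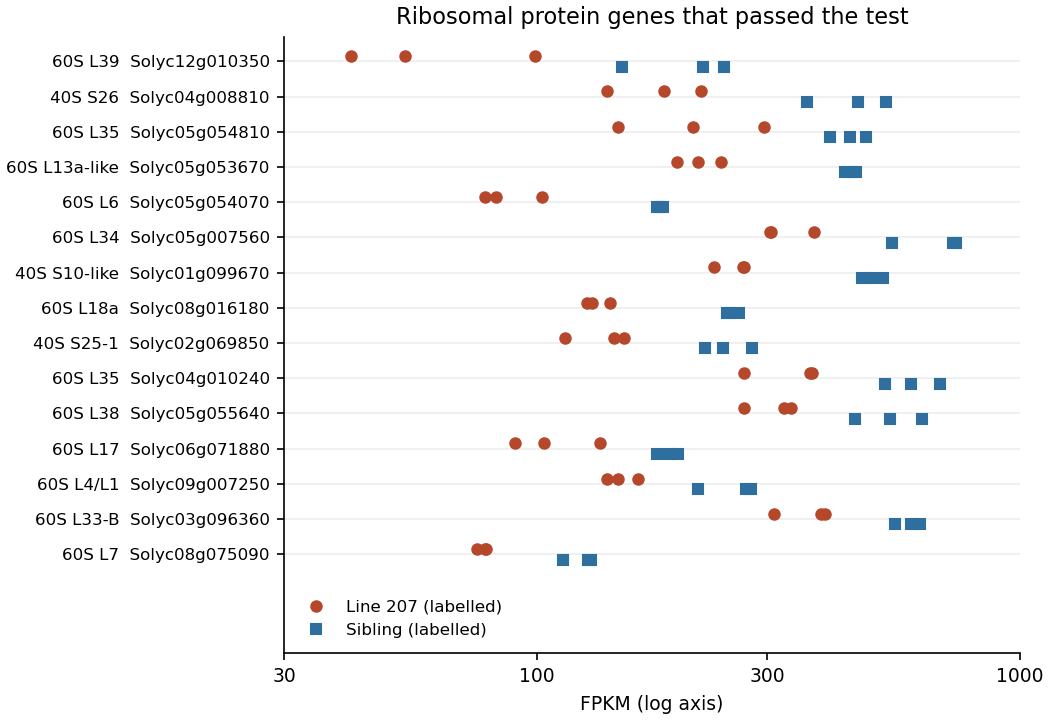
FPKM on a log axis of the 15 ribosomal protein genes that passed the test, 1 row a gene in order of their log2 difference, with red circles for the 3 libraries labelled line 207 and blue squares for the 3 labelled sibling. In each row all 3 circles lie left of all 3 squares, and the folds run from 3.17-fold lower for L39 in the top row to 1.60-fold lower for L7 in the bottom row.

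The remaining called 60S genes were L34, L38, L33-B and L7. L34 (Solyc05g007560) gave 305, 375 and 304 FPKM in labelled line 207, against 543, 726 and 739 FPKM in labelled sibling, or 2.04-fold lower (limma, adjusted p = 0.022). L38 (Solyc05g055640), which in mice is needed for translation of certain Hox messages, had 324, 336 and 269 FPKM in labelled line 207, against 455, 538 and 628 FPKM in labelled sibling (1.74-fold lower; limma, adjusted p = 0.0421). L33-B (Solyc03g096360), named after the yeast protein called L35a in mammals, showed 388, 394 and 310 FPKM in labelled line 207, against 552, 622 and 596 FPKM in labelled sibling (1.62-fold lower; limma, adjusted p = 0.0453). None of these 3 genes was below 268.6 FPKM in any library, and their groups stayed apart by less than the gap seen for L13a. L7 (Solyc08g075090) gave 78.1, 75 and 78.6 FPKM in labelled line 207, against 113, 127 and 130 FPKM in labelled sibling (1.60-fold lower; limma, adjusted p = 0.0308). L33-B lost its call whichever library was left out, with adjusted p from 0.0514 to 0.137. L34, L38, L7, L4 and the L35 gene Solyc04g010240 kept theirs only without labelled sibling replicate 1. L17 kept its call only without labelled line 207 replicate 2, the L35 gene Solyc05g054810 only without labelled line 207 replicate 1, and L39 without labelled line 207 replicate 3 or labelled sibling replicate 3. In the fits in which these 8 genes lost the call, the adjusted p lay between 0.0502 and 0.127 (limma).

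The count of calls also moved with the library left out. Without labelled line 207 replicates 1, 2 and 3, 4, 11 and 5 of 128, 129 and 128 tested ribosomal protein genes were called lower. Over all genes it was 409, 407 and 464. Without labelled sibling replicates 1, 2 and 3, 20, 4 and 6 of 128, 129 and 129 ribosomal protein genes were called lower. Over all genes it was 509, 246 and 360. In the fit without labelled sibling replicate 1 the L18A gene Solyc12g011440 was called higher. Each such fit has 5 libraries. Over all genes fewer were called in each of the 6, 246 to 509 lower and 259 to 685 higher. The numbers of all genes tested in these fits are not given, so the 15766 of the full fit stand in for them. On that basis the share called lower was near that of all genes without labelled line 207 replicate 1 or 3. The median log2 difference of the tested ribosomal protein genes stayed between -0.73 and -0.52 in these 6 fits.

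A number of genes differed widely without passing the test. S17 (Solyc05g055230) had the lowest difference among the genes whose groups did not overlap, with 145, 98.2 and 22.9 FPKM in labelled line 207 and 212, 293 and 254 FPKM in labelled sibling. Its libraries labelled line 207 were themselves spread, and the difference of -1.84 ± 0.62 (SE) did not pass (limma, adjusted p = 0.114). L5 (Solyc06g007670), which carries the 5S ribosomal RNA into the large subunit, had 151, 351 and 233 FPKM in labelled line 207 and 441, 545 and 563 FPKM in labelled sibling (limma, adjusted p = 0.0624). For S17 as for L5, every library labelled line 207 was below every labelled sibling. S11 (Solyc06g073800) lay just outside the threshold, at 244, 263 and 218 FPKM in labelled line 207 and 328, 455 and 485 FPKM in labelled sibling (limma, adjusted p = 0.0505), and just inside lay the L35 gene Solyc05g054810 with 0.0475. S6, the protein phosphorylated by S6 kinase, had 3 tested genes and none called. The S6 gene Solyc08g074240 showed 151, 222 and 146 FPKM in labelled line 207, against 212, 275 and 267 FPKM in labelled sibling, and these ranges overlapped. The S6 gene Solyc12g096300 had 68.5, 39.6 and 36.4 FPKM in labelled line 207, against 70.0, 105 and 71.4 FPKM in labelled sibling, without overlap (log2 difference -0.79; limma, adjusted p = 0.142). The S6 gene Solyc08g006040 gave 111, 108 and 83.4 FPKM in labelled line 207 and 103, 149 and 140 FPKM in labelled sibling, with ranges that overlapped.

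In 4 tested genes every library labelled line 207 lay above every labelled sibling, and none of the 4 passed the test. Both L18A genes among them lack a ribosomal protein domain. The L18A gene Solyc12g011440 gave 57.7, 67.1 and 54.2 FPKM in labelled line 207, against 41.7, 33.6 and 23.6 FPKM in labelled sibling (log2 difference 0.87 ± 0.25 SE; limma, adjusted p = 0.0708). The L18A gene Solyc02g070630 had 73.3, 101 and 68.5 FPKM in labelled line 207, against 39.8, 54.6 and 61.3 FPKM in labelled sibling (limma, adjusted p = 0.144). The L34 gene Solyc02g087930 showed 247, 319 and 223 FPKM in labelled line 207, against 140, 194 and 208 FPKM in labelled sibling (limma, adjusted p = 0.17). The L7-like gene Solyc03g117060 gave 133, 173 and 133 FPKM in labelled line 207, against 88.3, 120 and 114 FPKM in labelled sibling (limma, adjusted p = 0.198). For the L34 and L7-like genes another gene of the same protein was called lower. Of the 6 tested genes without a ribosomal domain, 4 had a positive difference and 0 were called. NOP16 had 31.2, 44.9 and 36.3 FPKM in labelled line 207 and 50.3, 50.2 and 54.3 FPKM in labelled sibling, apart but not past the test (limma, adjusted p = 0.188). Solyc12g096220, the gene with the PRONE domain, showed 174, 149 and 169 FPKM in labelled line 207 and 149, 209 and 190 FPKM in labelled sibling, with groups that overlapped.

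Genes with the same protein name were set side by side as copies, each as a share of the summed FPKM of that protein in its library. This ratio within a library does not depend on how the libraries were scaled. There were 43 proteins with 2 or more tested genes, 122 genes in all. The gene with the largest mean share was the same in both groups for 38 of the 43, and the largest change of a mean share had a median of 5.16 percentage points over the 43 proteins. It was under 5 points for 21 proteins and over 10 points for 9. The leading gene differed for L27, L31, L37a, L7 and S10. Genes were counted by name here, so that the leading gene of L7 in labelled line 207 was Solyc12g096220, the gene with the PRONE domain. With only the genes that list a ribosomal protein domain, 42 proteins and 117 genes remained, and the leading gene was the same in both groups for 37. The leading L7 gene was then Solyc03g117060 in labelled line 207 and Solyc07g008370 in labelled sibling.

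**Figure D4:**
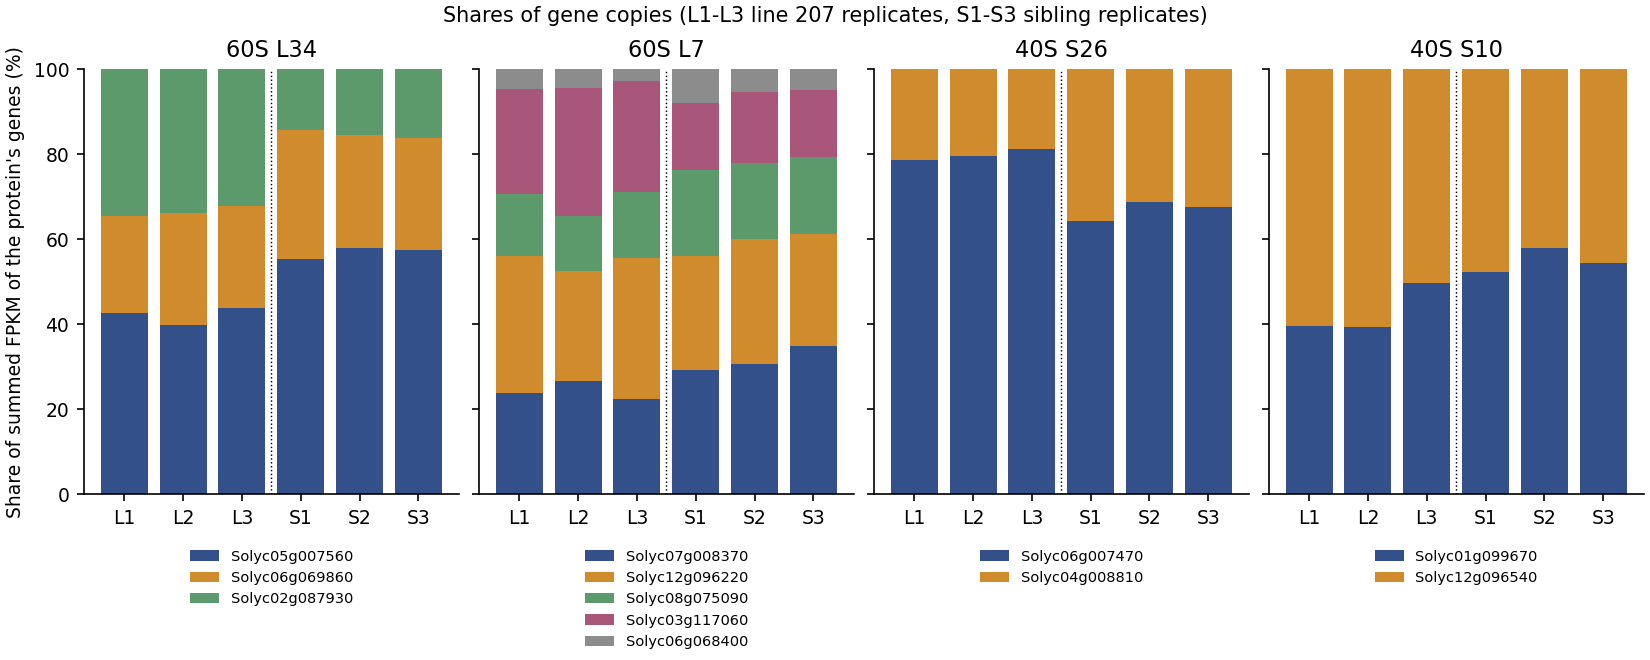
Share (%) of each gene in the summed FPKM of its protein, counted by name (L7 includes Solyc12g096220, which lists no ribosomal domain), stacked to 100, for L34, L7, S26 and S10, with the 3 libraries labelled line 207 (L1 to L3) left of the 3 labelled sibling (S1 to S3). The L34 gene Solyc02g087930 takes 32.1 to 34.6% in labelled line 207 and 14.3 to 16.2% in labelled sibling, and the S26 gene Solyc04g008810 takes 18.8 to 21.3% in labelled line 207 and 31.2 to 35.8% in labelled sibling.

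L34 shifted the most among the proteins whose shares did not overlap between groups. Its gene Solyc02g087930 made up 34.6, 33.7 and 32.1% of L34 FPKM in labelled line 207, against 14.3, 15.5 and 16.2% in labelled sibling. The ratio of this gene to the called L34 gene Solyc05g007560 was 0.812, 0.849 and 0.734 in labelled line 207 and 0.258, 0.268 and 0.282 in labelled sibling. The L34 copies thus stood closer to each other in every library labelled line 207. For L7, the ratio of Solyc03g117060 to Solyc08g075090 was 1.71, 2.31 and 1.69 in labelled line 207 and 0.782, 0.942 and 0.880 in labelled sibling, so the order of these copies was opposite in the groups. The S26 gene Solyc04g008810 gave 21.3, 20.4 and 18.8% of S26 FPKM in labelled line 207 and 35.8, 31.2 and 32.5% in labelled sibling, and the other S26 gene, Solyc06g007470, made up the rest without being called. The S10 gene Solyc01g099670 gave 39.5, 39.3 and 49.8% of S10 FPKM in labelled line 207 and 52.2, 57.9 and 54.4% in labelled sibling. For L5, the main gene Solyc06g007670 averaged 47.0 ± 7.02% in labelled line 207 and 61.1 ± 2.27% in labelled sibling (SD, n = 3 each). In the S24 family the gene Solyc01g097870 gave 52.7, 45.8 and 51.8% in labelled line 207 and 37.9, 39.3 and 40.5% in labelled sibling.

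The genes named L18A and L18a are told apart in the table only by a capital letter and by their domains. The summed FPKM of the 4 L18A genes over that of the 4 tested L18a genes was 0.283, 0.329 and 0.326 in labelled line 207, against 0.165, 0.126 and 0.118 in labelled sibling. The identifiers Solyc02g070630 (L18A) and Solyc02g070640 (L18a) follow each other, and the ratio of the first to the second was 0.401, 0.535 and 0.587 in labelled line 207, against 0.175, 0.157 and 0.188 in labelled sibling. Both ratios were higher in each library labelled line 207 than in any labelled sibling. Copies of one protein can be close in sequence, so their estimated values may share reads.

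Some copies cannot be read on their own. The S4 genes Solyc02g070330, Solyc02g070340 and Solyc02g070350 held identical values in every library, 189, 236 and 122 FPKM in labelled line 207 and 319, 366 and 341 FPKM in labelled sibling, and each had the same adjusted p of 0.0591 in limma. They are 3 of 19 genes in the table whose values are identical to those of another gene with values above 0, and they carry 1 measurement, not 3. With identical rows counted once, 15 of the ribosomal protein genes were called lower and the median difference was -0.56. These S4 genes were not themselves called, so the count of calls had little room to change. The L38 gene Solyc11g008510 had the largest positive difference, 3.35 ± 1.81 (SE), with 198, 433 and 94.9 FPKM in labelled line 207 and 0, 32.6 and 231 FPKM in labelled sibling. These ranges overlap and the difference did not pass (limma, adjusted p = 0.299). The S29 gene Solyc11g020890 gave 0, 138 and 81.5 FPKM in labelled line 207 and 0, 260 and 35.3 FPKM in labelled sibling. Such a step between exactly 0 and 30 FPKM or more within a group was seen for 2 of the ribosomal protein genes (1.53%) and for 133 of all tested genes (0.844%). With any value under 0.1 FPKM counted as 0, it was seen for 8 of the ribosomal protein genes (6.11%) and 289 of all tested genes (1.83%). The other 6 are Solyc02g021400 (S28), Solyc03g083290 (S12), Solyc06g082650 (L10), Solyc10g078660 (L24), Solyc11g006690 (S17-like) and Solyc12g036450 (S7-like), none of them called, and a value of 0 beside one of this size can be a failed estimate.

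Summed over all 165 genes, the ribosomal proteins came to 29835, 36319 and 29043 FPKM in labelled line 207, against 41187, 51493 and 54903 FPKM in labelled sibling. As a share of all FPKM in the library this is 3.30, 3.93 and 3.70% in labelled line 207 and 3.90, 4.83 and 4.66% in labelled sibling. On the share the groups overlapped, since labelled line 207 replicate 2 lay above labelled sibling replicate 1. The total of a library leans on a few genes, the top 10 of which took 14.0 to 37.1% of it. The gene with the highest mean was at 0 FPKM in labelled line 207 replicates 1 and 3 and at 74530 FPKM in replicate 2. In labelled sibling it had 121486, 124215 and 198764 FPKM. It therefore weighs unevenly on the totals, and a 0 beside such values can be a failed estimate. The 100 highest genes were also taken out of the total, while ribosomal protein genes among them, such as S28, stayed in the summed level. That sum was then 5.74, 6.50 and 5.66% of the remaining total in labelled line 207. In labelled sibling it was 7.23, 8.86 and 9.51%, without overlap. This is a ratio and not a share of the remaining genes, and the part of those highest genes in the gap was not computed. The ratio of 40S to 60S sums was 0.929, 0.957 and 1.00 in labelled line 207 and 1.00, 1.01 and 1.08 in labelled sibling. With 3 samples against 3 an exact permutation test of such a value cannot go below p = 0.10, and none was run.

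The direction of these genes was checked against the scaling of the libraries. The sum of a library includes the uneven highest gene described above, so the sum scaling rests partly on that gene. When every library was scaled to the same sum, the median over all tested genes moved to 0.21 and that of the ribosomal protein genes to -0.23. The distance between the medians was then -0.44, against -0.48 as deposited. Calls became 4 lower and 4 higher among the 131, and 450 lower and 1359 higher over all genes. As a share, the lower calls were then close to those over all genes, and the higher calls fewer. The larger share of lower calls as deposited was thus not seen under this scaling. The genes called lower under the sum scaling were S26, L13a, L6 and the L18a gene Solyc08g016180, and those called higher were both L18A genes named above, the L34 gene Solyc02g087930 and the L7-like gene Solyc03g117060. Groups without overlap numbered 38 of 131 lower (29.0%) and 7 higher (5.34%) under that scaling, against 10.4% lower and 23.5% higher over all genes. When the libraries were scaled to the same median, 16 were called lower and 0 higher.

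The authors' deposited table gives its own q-value for each of these genes, below 1 for 129 and at 1 for 36. At a q of at most 0.05 it calls 55 lower and 2 higher in labelled line 207. Over all genes with a q below 1 in the authors' deposited table, the background is 15.6% lower and 12.8% higher. Of the 15 genes called by limma, 13 are also called in the authors' deposited table, the exceptions being L39 (q = 0.38) and the L7 gene Solyc08g075090 (q = 0.126). The genes called higher in the authors' deposited table are the L18A gene Solyc02g070630 (q = 0.0213) and the L34 gene Solyc02g087930 (q = 0.0244). Both sets of calls rest on the same 6 libraries.

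Other genes of the ribosome were taken from lists by name. The shares called in these lists stand beside 5.04% lower and 5.01% higher over all tested genes. The acidic P proteins form the stalk of the large subunit that recruits elongation factors. Of 5 tested genes, 2 were called lower (40%) and 0 higher, with a median of -0.65. The P0 gene Solyc05g054580, the base of the stalk, had 366, 411 and 279 FPKM in labelled line 207, against 599, 605 and 569 FPKM in labelled sibling (1.68-fold lower; limma, adjusted p = 0.0494). The list of genes whose name holds ribosomal protein without a subunit had 67 tested genes, 6 of which are named for S6 kinase, an enzyme and not a part of the ribosome. Of the 67, 6 were called lower (8.96%) and 0 higher, with a median of -0.54. Of the 61 left without S6 kinase genes 6 were called lower (9.84%), with a median of -0.56. With 1 library left out, 4, 4 and 3 of the 61 were called lower without labelled line 207 replicates 1 to 3 and 7, 2 and 3 without labelled sibling replicates 1 to 3. L30 (Solyc01g009100) showed 197, 203 and 157 FPKM in labelled line 207, against 372, 422 and 446 FPKM in labelled sibling (2.22-fold lower; limma, adjusted p = 0.00979). L26 (Solyc02g092430) gave 254, 293 and 254 FPKM in labelled line 207, against 493, 619 and 564 FPKM in labelled sibling (2.09-fold lower; limma, adjusted p = 0.0112). L30 and L26 kept the call with any 1 library left out, while P0 lost it each time, with adjusted p from 0.0691 to 0.137 (limma). The medians of these lists lay near that of the 40S and 60S genes.

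The 30S and 50S ribosomal proteins belong to ribosomes of the bacterial kind, those of plastids and mitochondria. Of their 114 tested genes, 19 were called lower (16.7%, against 5.04% of all tested genes) and 0 higher. Their median was -0.65, close to that of the cytosolic genes. Leaving out 1 library gave 8, 12 and 8 lower calls without labelled line 207 replicates 1 to 3 and 14, 6 and 12 without labelled sibling replicates 1 to 3. Their levels were lower than those of the cytosolic set, with a median of the mean FPKM of 52.6.

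The lists of ribosome assembly, initiation, elongation and synthetases had medians closer to that of all genes than the ribosomal protein lists had, a difference that was not tested. Of 50 tested genes of ribosome assembly, 1 was called lower (2%, against 5.04% of all tested genes) and 0 higher, with a median of -0.17. That gene was fibrillarin (Solyc03g025270), the methyltransferase that modifies ribosomal RNA in the nucleolus, at 68.4, 98.5 and 64.7 FPKM in labelled line 207, against 152, 160 and 143 FPKM in labelled sibling (1.97-fold lower; limma, adjusted p = 0.025). None of the 3 genes of RNA polymerase I, which transcribes ribosomal RNA, passed, and their median was -0.48. Of 51 tested genes of translation initiation, 2 were called lower and 2 higher, with a median of -0.17. This is 3.92% each way, below the 5.04% lower and 5.01% higher of all tested genes. The initiation genes called higher were eIF4E (Solyc10g080660), which binds the cap of messenger RNA, and a gene for eIF4G2 (Solyc03g111640). The eIF4E gene had 243, 206 and 215 FPKM in labelled line 207, against 78.8, 123 and 129 FPKM in labelled sibling, or 2.01-fold higher (limma, adjusted p = 0.0308). Its groups were apart in the direction opposite to that of the ribosomal proteins. Of 7 tested genes of elongation and release, 2 were called lower (28.6%). The called EF1-alpha gene Solyc06g009970, which brings aminoacyl-tRNA to the ribosome, showed 269, 290 and 274 FPKM in labelled line 207, against 411, 482 and 465 FPKM in labelled sibling (1.63-fold lower; limma, adjusted p = 0.0299). EF1-gamma (Solyc06g011280) was 1.57-fold lower (limma, adjusted p = 0.0272). Of 46 aminoacyl-tRNA synthetase genes 1 was called lower (2.17%), with a median of -0.28. Of the same 6 tested S6 kinase genes, 0 were called in either direction, with a median of 0.54. The groups did not overlap for 5 of them, 4 with labelled line 207 higher (66.7%) and 1 with it lower (16.7%). Over all tested genes it was 15.6% higher and 17.6% lower. The list is small, and some of its values were near 0, such as those of Solyc02g067830 in labelled line 207. Of the 6, 1 was called higher without labelled sibling replicate 3. The list also asked for the kinase TOR by name, and no gene of it entered. With 1 library left out, fibrillarin kept its call only without labelled line 207 replicate 2, both EF1 genes only without labelled sibling replicate 1, and eIF4E and eIF4G2 only without labelled sibling replicate 1 or 3. Their adjusted p in the other fits lay between 0.0515 and 0.104 (limma). With libraries scaled to the same sum, 450 genes were called lower and 1359 higher over the table, so higher calls were the more common. Calls were then 6 lower and 0 higher for the 30S and 50S proteins. They were 3 lower and 2 higher for the 67 genes named without a subunit, both of the higher ones S6 kinase genes. RNA polymerase I had 0 lower and 1 higher, initiation 0 lower and 4 higher, and assembly 0 lower and 1 higher. The acidic and elongation lists had 0 in either direction.

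**Figure D5:**
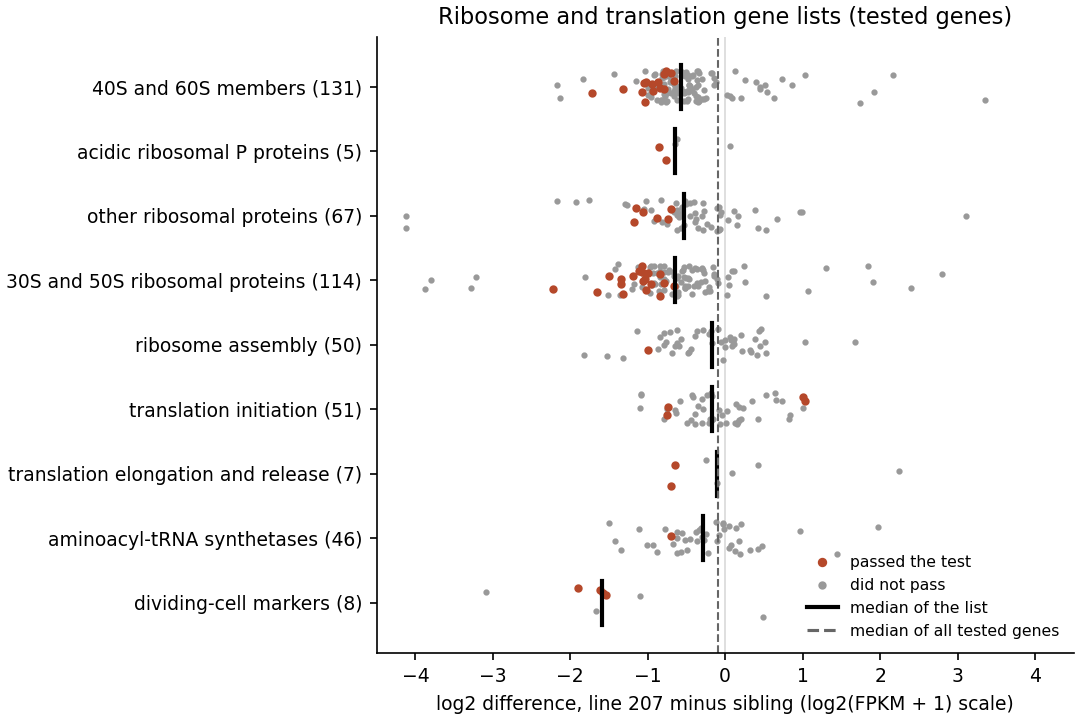
Log2 difference, labelled line 207 minus labelled sibling, of the tested genes of each list (number in brackets), red where the test was passed, with a black bar for the median of the list and a dashed line for the median of all tested genes at -0.09. The 4 ribosomal protein lists, of which the one labelled other ribosomal proteins includes 6 S6 kinase genes, have medians from -0.65 to -0.54, the lists of ribosome assembly, initiation, elongation and synthetases from -0.28 to -0.10, and the dividing-cell markers -1.59.

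Markers of dividing cells and green tissue moved with the labelled groups, and genes named for pollen or anther did so in part. The dividing-cell list holds PCNA, the sliding clamp of DNA replication, and replication licensing factors. Of its 8 tested genes 4 were called lower (50%, against 5.04% of all tested genes) and 0 higher, with a median of -1.59. The summed level of the whole list of 11 was 71.9, 82.7 and 78.0 FPKM in labelled line 207, against 309, 253 and 216 FPKM in labelled sibling. Of 21 tested genes named for pollen or anther, 4 were called lower (19%) and 0 higher, and 1 was called lower with libraries scaled to the same sum. With 1 library left out, 1 or 2 of them were called lower. The sums over the whole pollen and anther list of 40 were 852, 814 and 808 FPKM in labelled line 207, against 1394, 1622 and 1554 FPKM in labelled sibling. A large part of these sums was 1 gene named for a pollen allergen, Solyc04g054810. It had 352, 377 and 377 FPKM in labelled line 207, against 840, 920 and 727 FPKM in labelled sibling. The pollen marker LAT52 gave 6.71, 7.87 and 8.24 FPKM in labelled line 207 and 7.58, 37.2 and 39.4 FPKM in labelled sibling, so its groups overlapped. Of 20 tested chlorophyll a-b binding genes, 16 were called lower (80%) and 0 higher. The sums over this list of 23 were 3514, 1959 and 2390 FPKM in labelled line 207, against 18007, 10720 and 10513 FPKM in labelled sibling. The part of these markers, and of the lower depth of the libraries labelled line 207, in the level of the ribosomal protein genes was not tested.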

How the data were processed

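RNA of 6 libraries, 3 labelled line 207 and 3 labelled sibling, was measured by sequencing of stranded mRNA libraries, per the labels' protocols. The authors deposited 1 table, whose values were read as FPKM from the numbers and from the programs named per the submitters' processing notes, TopHat 1.3.2 and Cufflinks. The header names no unit. Genome build, annotation and any scaling of the libraries are unknown here. The authors deposited a p-value and a q-value per gene in the same table. A q of 1 was read as marking a gene left untested, which the header does not state. Of 34727 rows, 4 held no values.

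Genes with at least 1 FPKM in 3 or more libraries (15766) were tested on log2(FPKM + 1) with limma 3.58.1 in R 4.3.3, with a prior that follows the mean level, Benjamini-Hochberg adjustment over all of them and calls at 0.05. The pseudocount of 1 understates changes of low genes. Folds are ratios of group means. Total depth is unknown. The libraries are biological replicates by the series design, and replicate numbers did not pair them. Lists were built from words in the deposited descriptions. The ribosomal protein genes and the lists were chosen with earlier results of these data known. Genes named were those called higher, the 10 called lower with the smallest p, the 6 with the highest mean, the 5 with the largest difference without overlap in each direction, members not named for a ribosomal protein, all copies where a called gene has a copy of opposite sign, and up to 3 per list. The L17, L33-B, S11, S6, S24, S4, S29 and L31 genes fall outside that rule and were chosen after their values were seen. The same holds for the L39 gene Solyc07g005050 and the L4 genes other than Solyc09g007250. It also holds for the L35 genes other than Solyc05g054810 and the further genes with values near 0. Symbols such as SlZFP2, TAG1, TAGL1, TM5, TKN2 and LAT52 were matched to identifiers from memory. The gene described in the table as a WUSCHEL-related homeobox protein was listed for WUS. The supplied gene table of another assembly matched 0 of the identifiers, so no sequence or coordinate is given. Alternatives tried were another pseudocount, filters, thresholds and scalings, the authors' q-values, a replicate block and leaving out each library. Counts without S6 kinase genes, shares among genes with a ribosomal domain and the limit of 0.1 FPKM were added after the data were seen. The list of acidic P proteins was also added after the deposited table had been read.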

Additional observations from a re-analysis of the deposited data

How the results depend on the processing

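The median difference of the tested ribosomal protein genes was negative under each alternative tried. It was -0.23 with libraries scaled to the same sum and ran from -0.734 to -0.516 with 1 library left out. The count of genes called lower, 15 as reported, was 28 among genes with a mean of at least 10 FPKM, 4 under sum scaling, 47 at an adjusted p of 0.1, 55 by the authors' q and 4 to 20 with 1 library left out. The count called higher, 0 as reported, was 4 under sum scaling, 1 at an adjusted p of 0.1, 2 by the authors' q and 0 to 1 with 1 library left out. Over all genes, 795 lower and 790 higher as reported, the counts were 450 and 1359 under sum scaling, 1430 and 1293 at an adjusted p of 0.1, 1496 and 1226 by the authors' q, and 246 to 509 and 259 to 685 with 1 library left out. With the replicate number as a block, 6 ribosomal protein genes were called lower, and 408 genes lower and 486 higher over the table. Deviations of same-numbered libraries correlated at 0.00397, -0.00806 and -0.0105, so the numbers do not pair the samples. The mean share of the ribosomal protein genes in all FPKM, labelled line 207 minus labelled sibling, was -0.82 percentage points. It was -2.57 points with the 100 highest genes taken out of the total but not out of the ribosomal protein sum. The difference of Solyc12g096220 was -0.15 as deposited and 0.19 under sum scaling. Of 390 values of the 30 named genes under these alternatives, 313 kept direction and side of the threshold, 57 lost the call, 19 gained it and 1 changed sign. The cause of these changes was not tested. Low values are least precise where depth is lowest, in labelled line 207 replicate 1.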

Other observations

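L24 (Solyc10g083740) was read after its values were seen, since the L24 gene of Arabidopsis is known to be needed for reinitiation after upstream open reading frames. The gene had 112, 125 and 57.8 FPKM in labelled line 207 and 150, 213 and 204 FPKM in labelled sibling, without overlap and without passing the test (limma, adjusted p = 0.095). Another L24 gene, Solyc09g008800, showed 244, 276 and 246 FPKM in labelled line 207 and 303, 370 and 399 FPKM in labelled sibling, also without overlap. The L24 gene Solyc10g085480, gave 315, 511 and 384 FPKM in labelled line 207 and 423, 529 and 573 FPKM in labelled sibling, with ranges that overlap.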
